A study of Mus musculus with 8 samples.

Results

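Acetylation of histone H3 at lysine 9 (H3K9ac) was examined at 7 genes of the cerebellin, neurexin and delta receptor families in mouse cerebellum: the cerebellins Cbln1, Cbln2, Cbln3 and Cbln4, the neurexins Nrxn2 and Nrxn3, and the delta receptor gene Grid1. They were taken by name, out of 21887 protein-coding genes, and every listed peak that overlapped one of them or lay within 5 kb of it was kept. This gave 64 of the 52676 deposited peaks. The data were 8 peak lists from chromatin immunoprecipitation and sequencing (ChIP-seq). Of these, 4 came from C57BL/6 mice heterozygous for a 266Q knock-in, described by the submitters as a model of spinocerebellar ataxia type 7, and 4 from wild type mice. All were 9 weeks old, all libraries used the same anti-H3K9ac antibody, and the series describes the knock-in mice as symptomatic and the wild type mice as their littermates. The labels do not say whether a library is 1 animal or a pool, so every p-value here takes the library as its unit, and differences between libraries may be technical.

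Cerebellins are small secreted proteins of the C1q family. Cbln1 is released by cerebellar granule cells, binds neurexins on the axon and delta glutamate receptors on the Purkinje cell dendrite, and so bridges the synapse between them. Neurexins are presynaptic adhesion proteins whose genes have an outer promoter, which gives the long alpha form, and an internal one, which gives the short beta form. H3K9ac is a mark of active promoters, so a peak inside a neurexin gene and a peak at its outer end are given separately here. An outer end peak overlapped the 1 kb on either side of a gene end, an internal peak overlapped the gene without reaching those windows, and a flank peak lay only in the outer part of the 5 kb flanks.

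The lists fell into sets of different kind, and the same split appeared in both genotypes. Replicates 1 and 2 held 7735 to 11409 peaks with a median width of 1065 to 1246 bp, and replicates 3 and 4 held 1266 to 5571 peaks with a median width of 132 to 148 bp. The sources used here do not state read depth. A gene or its flanks held a peak in 34.9% to 46.9% of all protein-coding genes in replicates 1 and 2, in 16.6% and 9.72% in replicate 3 of knock-in and wild type, and in 2.78% and 3.83% in replicate 4. Granule cell markers had a peak at 8 of 8 genes in each library of replicates 1 and 2, and Purkinje cell markers at 1 to 3 of 6. The Purkinje genes Pcp2, Car8 and Pvalb had none in any library, nor had the interneuron genes Gad1, Slc6a5 and Tfap2b. Markers of oligodendrocytes, astrocytes, microglia and vessels had a peak at no more than 1 gene of each list in any library. In whole tissue, fewer cells of a type and less acetylation per cell cannot be told apart.

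Peaks were found at 5 of the 7 genes: Cbln1, Cbln3, Nrxn2, Nrxn3 and Grid1. Cbln2 and Cbln4 had none in any library. Of the 64 peaks, 32 lay at Nrxn2, 13 at Cbln1, 11 at Nrxn3, 7 at Cbln3 and 1 at Grid1. By place, 12 were at a lower-coordinate end, 14 at a higher-coordinate end, 1 reached both, 33 were internal and 4 were in a flank. All 33 internal peaks belonged to the neurexins, 23 at Nrxn2 and 10 at Nrxn3. Cbln1 and Cbln3 are short genes, of 3.74 and 5.34 kb, whose middle lies little beyond the end windows.

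**Figure D1:**
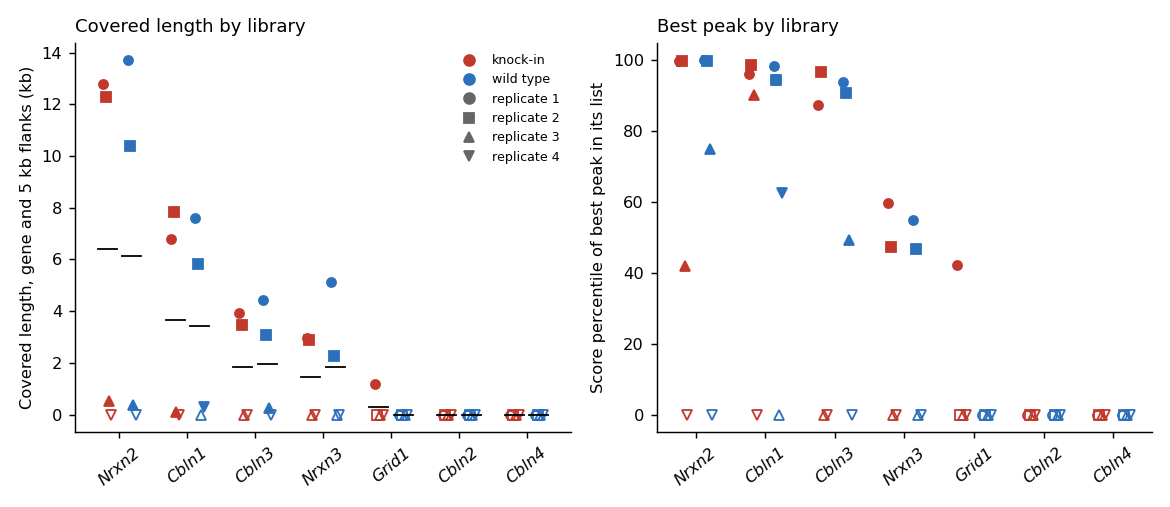
Left, length covered by peaks (kb) over each gene and its 5 kb flanks in each of the 8 libraries, with the mean of the 4 libraries of a genotype as a black bar; right, the percentile of the best peak's score within its own list. Open symbols at 0 are libraries without a peak. Nrxn2, Cbln1, Cbln3 and Nrxn3 were covered in replicates 1 and 2 of both genotypes, and the covered lengths of the genotypes overlap at every gene.

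Cbln1 (chr8:87468853-87472592, build mm10) was acetylated over most of its length in replicates 1 and 2 of both genotypes. Peaks covered 97.3% of the gene in knock-in replicate 1 and all but 1 bp of it in knock-in replicate 2, whereas wild type replicate 1 had 92.2% covered and wild type replicate 2 had 63.4%. Over the gene and its flanks the covered length was 6.79, 7.84, 0.082 and 0 kb in knock-in replicates 1 to 4, and 7.59, 5.82, 0 and 0.299 kb in wild type replicates 1 to 4. The libraries of replicates 1 and 2 were high in both genotypes and the others were near 0, so the groups overlapped. The mean was 3.68 ± 4.22 kb (SD, n = 4) in knock-in and 3.43 ± 3.86 kb (SD, n = 4) in wild type. The exact permutation test, adjusted over all genes, gave p = 1.0. Within replicates 1 and 2 the means were 7.31 and 6.7 kb, a difference of 0.608 kb, and 2 libraries against 2 cannot give an exact p below 0.333.

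In these 4 libraries the acetylation of Cbln1 was listed as 2 or 3 peaks in a row, with gaps between them. The highest score was always at the higher-coordinate end. There the score reached percentiles 96.1 and 98.6 of the knock-in lists and 98.3 and 94.3 of the wild type lists. A percentile gives a peak's rank by score, counted from the lowest, as a share of its list, with tied scores given their mean rank. The score was the authors' own value for a peak. The peak over the lower-coordinate end was weaker, at percentiles 29.3, 82.3, 81.4 and 36.9 in knock-in replicates 1 and 2 and wild type replicates 1 and 2. Of the 7927 bp covered at Cbln1 in any of these 4 libraries, 5419 bp (68.4%) were covered in all 4. Both knock-in lists and neither wild type list covered 293 bp, and 0 bp were covered in the reverse pattern. The narrow peaks of replicates 3 and 4 also lay at the higher-coordinate end: a peak of 82 bp in knock-in replicate 3 at percentile 90.2, and peaks of 163 and 136 bp in wild type replicate 4 at percentiles 62.6 and 4.81.

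The higher-coordinate end of Cbln1 lay 220 bp from Gm2694, a gene annotated as a long noncoding RNA, and each of the peaks there was also within 1 kb of Gm2694. The share of such a peak that belongs to either gene cannot be told apart in a peak list. The 250 bases before an annotated start of Gm2694 (chr8:87472866-87473115, plus strand, sequences from RefSeq GRCm38.p6 throughout) are shown because they lay inside the strongest Cbln1 peaks; capitals mark CpG dinucleotides, here 35 of them.
Gm2694: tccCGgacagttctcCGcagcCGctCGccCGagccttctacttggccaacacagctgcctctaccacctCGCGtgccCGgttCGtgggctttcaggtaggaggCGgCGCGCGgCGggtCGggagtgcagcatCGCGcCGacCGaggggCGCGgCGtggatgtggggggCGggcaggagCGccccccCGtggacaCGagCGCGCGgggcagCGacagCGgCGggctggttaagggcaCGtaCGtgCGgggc
All 250 bases were covered in replicates 1 and 2 of both genotypes, 85 bases in wild type replicate 4, and none in the other 3 libraries. Among protein-coding starts this CpG count would stand at percentile 96.5.

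**Figure D2:**
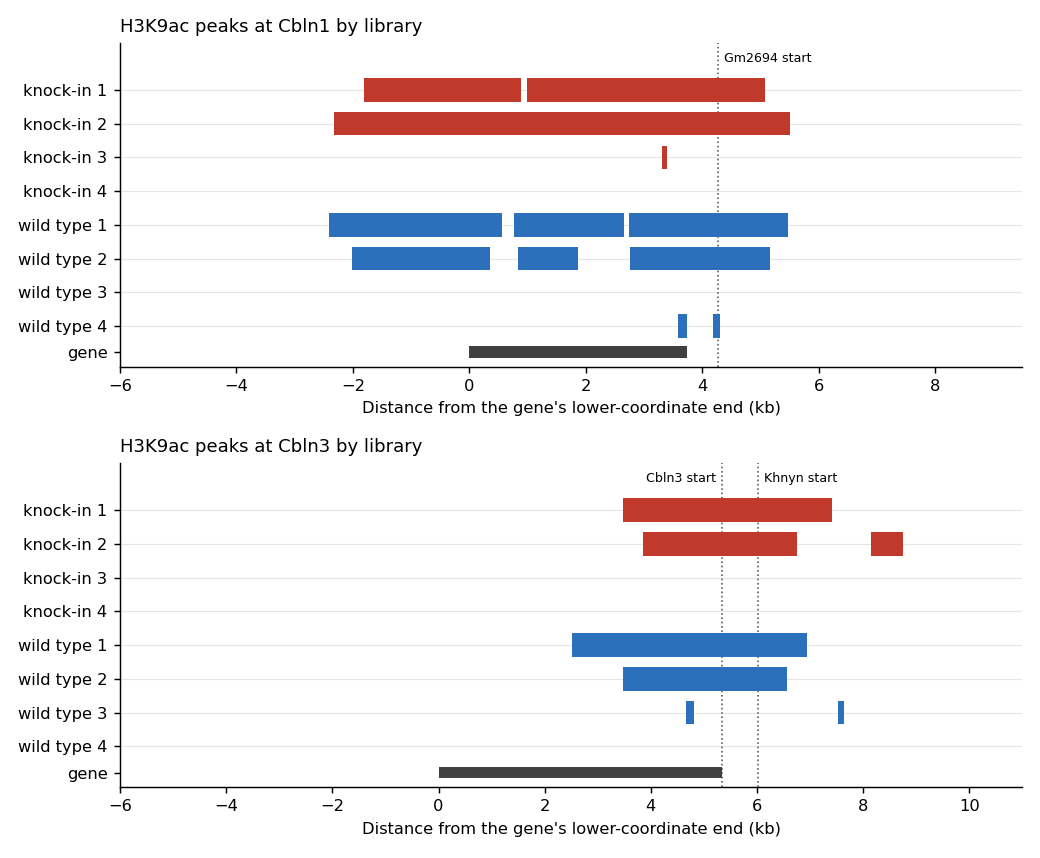
Listed peaks (boxes, drawn to scale) at Cbln1 and Cbln3 in each library, knock-in in red and wild type in blue, by distance in kb from the gene's lower-coordinate end; the grey bar is the gene and dotted lines are annotated starts. The 2 peaks of knock-in replicate 2 at Cbln1 adjoin and look like a single box. Cbln1 is covered over most of its length in replicates 1 and 2 of both genotypes. At Cbln3 the broad peaks sit over the start and reach past the start of Khnyn.

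Cbln3 (chr14:55878920-55884256, minus strand), whose protein is secreted together with Cbln1, carried a peak over its start in replicates 1 and 2 of both genotypes. The peak spanned 3932 bp (percentile 87.4) and 2890 bp (96.6) in the knock-in libraries, and 4430 bp (93.7) and 3090 bp (90.7) in the wild type ones. Wild type replicate 3 had a narrow peak of 151 bp at percentile 19.4, which lay 0.517 kb inside the gene from its start. Knock-in replicates 3 and 4 and wild type replicate 4 had none. Libraries with an outer end peak thus numbered 2 of 4 for knock-in and 3 of 4 for wild type (conditional exact test, p = 0.223, adjusted p = 1.0). This test fixes how many libraries have a peak at the gene and asks how many of them are knock-in, allowing for how many genes each list marks. Covered lengths were 3.93, 3.48, 0 and 0 kb for knock-in replicates 1 to 4 and 4.43, 3.09, 0.248 and 0 kb for wild type, and the groups overlapped. Its mean was 1.85 ± 2.15 kb (SD, n = 4) against 1.94 ± 2.17 kb (SD, n = 4) (exact permutation test, p = 0.914).

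The Cbln3 peak was shared with a neighbour. Khnyn, a protein-coding gene on the plus strand, has an annotated start 686 bp from that of Cbln3, so the genes point away from each other. A stretch of 2709 bp (chr14:55882780-55885488) was covered in all 4 libraries of replicates 1 and 2, and it held both starts. The 250 bases before either start were covered in full in those 4 libraries and not at all in the other 4. The sequence before the Cbln3 start (chr14:55884257-55884506, minus strand) is shown for its low CpG count: it holds 2 CpG dinucleotides, in capitals, against 15 before the Khnyn start.
Cbln3: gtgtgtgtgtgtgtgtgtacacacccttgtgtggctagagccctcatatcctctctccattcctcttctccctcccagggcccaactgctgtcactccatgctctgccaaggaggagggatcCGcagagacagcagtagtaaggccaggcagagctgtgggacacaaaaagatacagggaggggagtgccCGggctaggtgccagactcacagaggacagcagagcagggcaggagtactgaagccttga
The count of the Cbln3 start stood at percentile 18.8 of 21263 protein-coding starts in the table, and that of the Khnyn start at percentile 64.6. Of the 1597 protein-coding starts with 2 CpG, 0.501% were covered in all 4 of these libraries, against 19.8% of all protein-coding starts.

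Cbln2 was without a listed peak in all 8 libraries, over the gene and both flanks. The same held for Cbln4 (chr2:172036336-172043466, minus strand). The list holds no sub-threshold signal, so weaker acetylation there would not be seen. At the Cbln4 start the nearest peak lay 37.5 to 327.0 kb away, depending on the library. The 250 bases before that start (chr2:172043467-172043716, minus strand) are shown as the contrast to Cbln3, since they hold 11 CpG dinucleotides, in capitals, and no peak.
Cbln4: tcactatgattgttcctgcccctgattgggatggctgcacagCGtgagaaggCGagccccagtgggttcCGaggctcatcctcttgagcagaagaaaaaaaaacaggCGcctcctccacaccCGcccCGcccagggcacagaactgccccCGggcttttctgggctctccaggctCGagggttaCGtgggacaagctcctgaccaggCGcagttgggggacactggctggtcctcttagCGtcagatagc
That count stood at percentile 53.8 of protein-coding starts. Of the 553 protein-coding starts with 11 CpG, 16.8% were covered in all 4 libraries of replicates 1 and 2 and 53.3% in at least 1 of the 8.

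Across all protein-coding starts, the share covered by a peak was larger where CpG dinucleotides were more frequent. In knock-in replicate 1 it was 1.18% in the lowest of 5 equal groups of starts by CpG count and 81.2% in the highest, and in wild type replicate 1 it was 0.752% and 70.1%. Cbln3, with a peak, has the count at which the lowest group ends, and Cbln4, without one, lies in the middle group. A search on both strands of the 250 bases found no TATA box (TATAAA) before Cbln3, Cbln4 or any Nrxn3 start, a motif held by 11.6% of protein-coding starts. A CCAAT box (CCAAT) was present before Cbln4 only, against 35.4% of protein-coding starts. The GC box (GGGCGG, held by 42.6%) was present 2 times before Cbln4 and not before Cbln3 or the Nrxn3 starts.

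**Figure D3:**
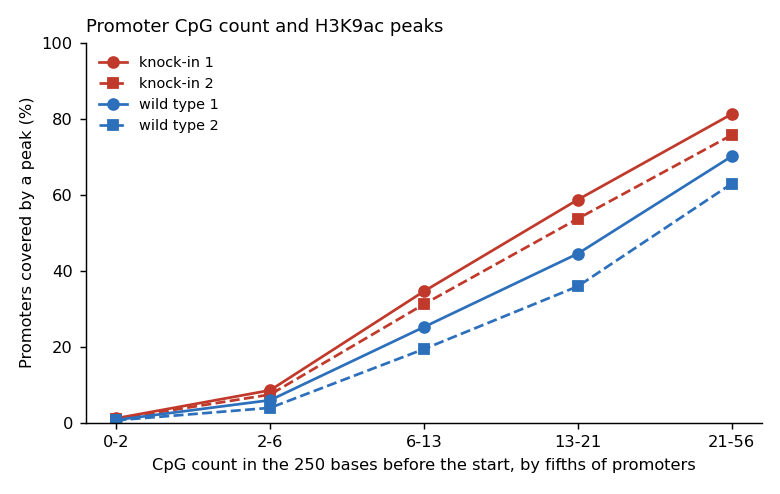
Share of protein-coding starts (%) whose preceding 250 bases were touched by a peak, by 5 equal groups of the CpG count in those bases (ties at the borders were split), in the 4 libraries of replicates 1 and 2. The share is larger in each successive group in all 4 libraries, from 1.18% to 81.2% in knock-in replicate 1.

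Nrxn2 (chr19:6418756-6533217) had its strongest acetylation inside the gene and not at either end. The covered length was 12.8, 12.3, 0.526 and 0 kb in knock-in replicates 1 to 4, and 13.7, 10.4, 0.38 and 0 kb in wild type replicates 1 to 4. Replicates 1 and 2 were high in both genotypes, and the ranges of the groups overlapped. The mean was 6.41 ± 7.1 kb (SD, n = 4) in knock-in and 6.1 ± 6.97 kb (SD, n = 4) in wild type (exact permutation test, p = 0.914, adjusted p = 1.0). Averaged over replicates 1 and 2 of both genotypes, 10 of 21887 protein-coding genes had a longer covered length, and 43 had a longer one than Cbln1. Nrxn2 is long, so length per window puts it differently: 1058 genes then ranked above it, and 10 above Cbln1.

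The main internal region of Nrxn2 lay 77.48 to 86.15 kb from the lower-coordinate end (chr19:6496240-6504903) and was held by 3 knock-in and 3 wild type libraries. Its chief peak measured 6569 bp in knock-in replicate 1, 6145 bp in knock-in replicate 2, 4910 bp in wild type replicate 1 and 3013 bp in wild type replicate 2. By score this peak ranked 26th of 10607 and 36th of 11268 in the knock-in lists, and 12th of 11409 and 35th of 7735 in the wild type lists. By width it ranked 7th, 12th, 22nd and 79th in the same lists. The chief peak was wider in both knock-in libraries than in either wild type library. In wild type replicate 2, however, a second peak of 2053 bp began just beyond it and continued the region. All internal peaks of the gene together covered 8839 and 8772 bp in the knock-in libraries, against 8330 and 8012 bp for wild type. These ranges do not overlap, but they rest on 2 libraries a genotype, where no exact p below 0.333 can be reached. The separation also depends on which peaks count as internal. The totals include a peak near the higher-coordinate end of 641 bp in knock-in replicate 2 and of 825 bp in wild type replicate 2. Without these peaks knock-in replicate 2 would fall below wild type replicate 1, and the ranges would overlap.

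Narrow peaks of replicate 3 fell in the same internal region, at percentiles 41.9, 14.4 and 15.3 for knock-in and at 74.8 and 70.8 for wild type. A stretch of 2798 bp and one of 2053 bp, 77.74 to 82.61 kb from the lower end, were covered in all 4 libraries of replicates 1 and 2. The higher-coordinate end of Gm52381, a long noncoding RNA annotated within Nrxn2, lay inside the chief peak in replicates 1 and 2 of both genotypes. The share of that peak that belongs to either gene cannot be told apart in a peak list. RefSeq starts for Nrxn2 were not matched in the table, so the distance to an annotated internal start is not given.

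The outer ends of Nrxn2 were weaker. At the lower-coordinate end a peak was present in the same 4 libraries: 1853 bp (percentile 75.8) and 2026 bp (92.3) in knock-in, 1694 bp (86.2) and 2340 bp (78.8) in wild type. It lay within 1 kb of the noncoding Gm14965. In each of these 4 libraries the internal peak had the higher score. Among the 245 genes with an outer end and an internal peak in all 4, the internal one ranked higher in all 4 at 34 (13.9%). Near the higher-coordinate end a region of 2427 bp was held by 3 knock-in and 2 wild type libraries. Its peaks reached the 1 kb end window in 3 libraries and stopped short of it in knock-in replicate 3 and wild type replicate 2, so it counts as an end or as internal depending on the window. A smaller internal region 8.77 to 10.1 kb from the lower end was held by 2 knock-in and 3 wild type libraries, at percentiles 1.55 to 57.4. Wild type replicate 1 alone had an internal peak 25.98 kb from the lower end and a pair of flank peaks towards Slc22a12.

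**Figure D4:**
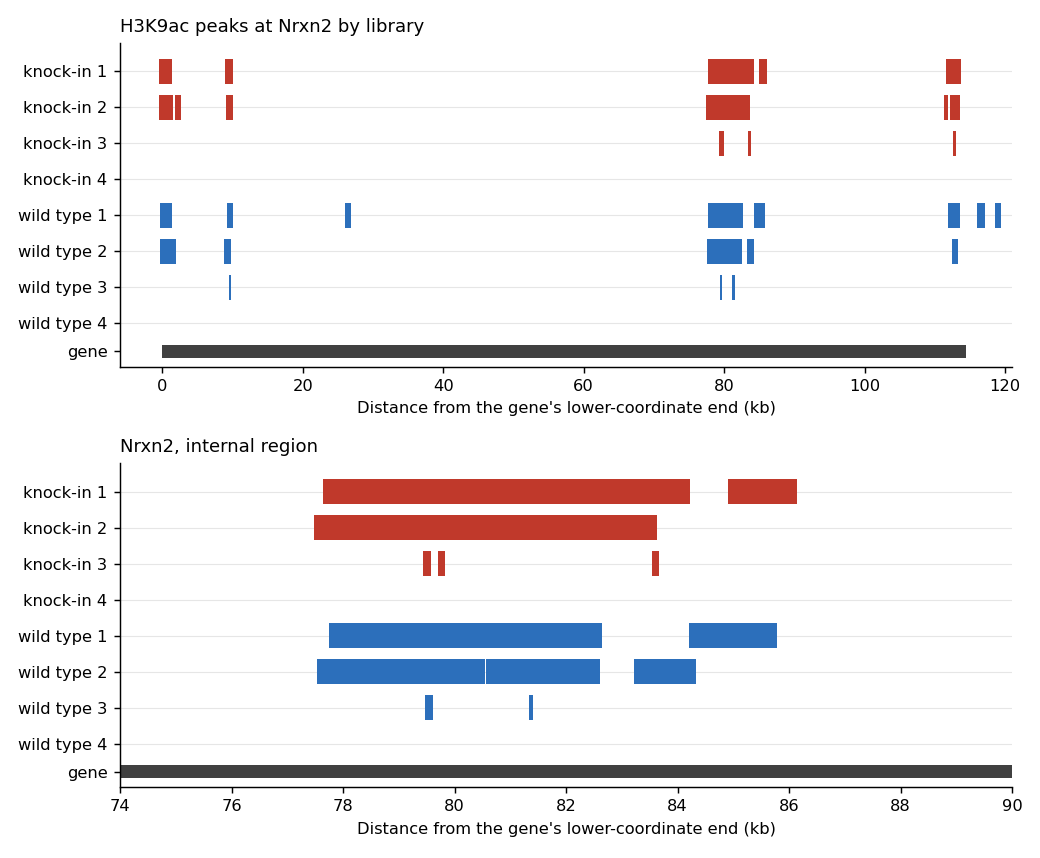
Listed peaks at Nrxn2 in each library, knock-in in red and wild type in blue, by distance in kb from the gene's lower-coordinate end; the grey bar is the gene. The upper panel shows the gene and its flanks, where peaks too narrow to see are drawn at a fixed minimum width, and the lower panel shows the main internal region to scale. The widest boxes lie inside the gene, from 77.48 kb, in replicates 1 and 2 of both genotypes.

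Nrxn3 (chr12:88722701-90334935, plus strand), the longest of these genes, was marked at an internal start and hardly at its outer end. The covered length was 2.97, 2.9, 0 and 0 kb in knock-in replicates 1 to 4 and 5.11, 2.27, 0 and 0 kb in wild type replicates 1 to 4. The values above 0 in knock-in lay between those of wild type replicates 1 and 2, so the groups overlapped. The mean was 1.47 ± 1.69 kb (SD, n = 4) against 1.84 ± 2.42 kb (SD, n = 4) (exact permutation test, p = 1.0). The outer end held a peak in wild type replicate 1 only, 0.79 kb inside the gene at percentile 36.2. The conditional exact test gave p = 0.198 there, and 1.0 after adjustment.

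RefSeq placed 3 starts inside Nrxn3, and H3K9ac was found at the third alone. The 250 bases before each are printed to let them be compared, in the order of the gene and with CpG dinucleotides in capitals. They lie at chr12:88794254-88794503, chr12:88953140-88953389 and chr12:89812233-89812482, on the plus strand.
Start 1: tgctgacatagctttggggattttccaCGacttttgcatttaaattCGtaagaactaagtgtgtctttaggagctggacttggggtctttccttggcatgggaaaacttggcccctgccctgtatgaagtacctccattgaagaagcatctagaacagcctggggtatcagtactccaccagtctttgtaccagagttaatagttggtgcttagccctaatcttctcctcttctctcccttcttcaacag
Start 2: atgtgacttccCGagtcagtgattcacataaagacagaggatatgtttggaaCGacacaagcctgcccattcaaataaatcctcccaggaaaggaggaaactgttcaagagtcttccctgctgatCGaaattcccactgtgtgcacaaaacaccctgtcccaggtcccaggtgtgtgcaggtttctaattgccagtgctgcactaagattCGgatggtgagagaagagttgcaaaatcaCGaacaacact
Start 3: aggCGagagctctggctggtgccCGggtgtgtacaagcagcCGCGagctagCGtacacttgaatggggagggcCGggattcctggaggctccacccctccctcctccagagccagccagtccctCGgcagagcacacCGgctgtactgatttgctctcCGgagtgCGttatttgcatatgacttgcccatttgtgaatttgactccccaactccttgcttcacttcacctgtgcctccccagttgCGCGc
They hold 2, 5 and 12 CpG dinucleotides, and their GC content was 45.6%, 46.8% and 60.0%. The bases before start 3 were covered in full in knock-in replicates 1 and 2 and wild type replicate 2, over 187 bp in wild type replicate 1, and not at all in the other 4 libraries. Those before starts 1 and 2 were covered in no library, and the nearest peak to either start in any library was 59.4 kb away. Of protein-coding starts with 12 CpG, 51.8% were covered in at least 1 library, against 16.7% with 5 and 3.88% with 2. The E-box (CANNTG, a palindrome, so both strands give the same count) occurred 5 times before start 3, 1 time before start 2 and not before start 1, and 62.8% of protein-coding starts held it.

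The peaks that crossed the third start of Nrxn3 varied in rank, at percentiles 59.8 and 15.3 for knock-in replicates 1 and 2 and at 53.9 and 32.9 for wild type replicates 1 and 2. The stretch covered in all 4 libraries of replicates 1 and 2 was 569 bp, which is 8.7% of what any of them covered at this gene. The region with the start spanned 1088.22 to 1091.47 kb from the lower end, in 2 knock-in and 2 wild type libraries. A second region at 1091.81 to 1093.1 kb was listed in knock-in replicate 2 and both wild type replicates 1 and 2, at percentiles 47.2, 55.0 and 46.7. In these 3 libraries that peak, which did not reach the start, had the highest score of the gene. In knock-in replicate 1 no peak was listed there. Wild type replicate 1 had a further weak peak at 290.12 kb, at percentile 3.19.

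**Figure D5:**
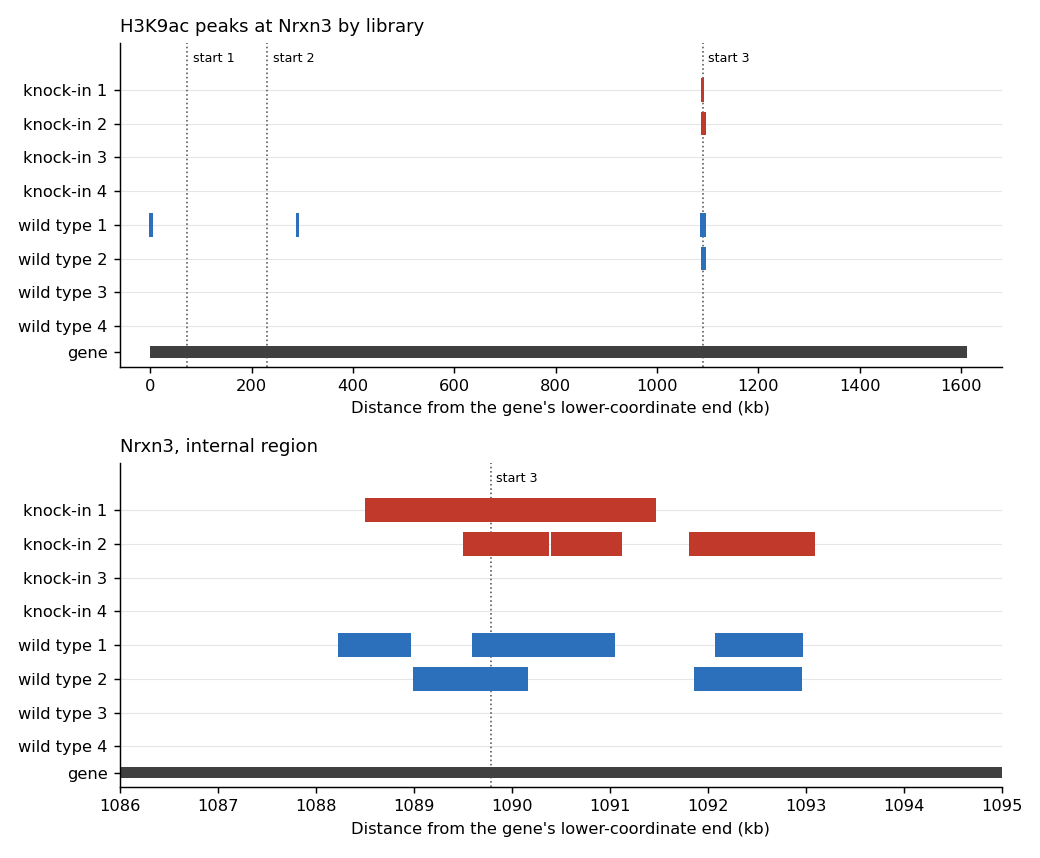
Listed peaks at Nrxn3 in each library, knock-in in red and wild type in blue, by distance in kb from the gene's lower-coordinate end; dotted lines are the RefSeq starts and the grey bar is the gene. In the upper panel peaks are drawn at a fixed minimum width so that they can be seen, and the lower panel is to scale. Boxes cross start 3 in replicates 1 and 2 of both genotypes, and none lies at starts 1 and 2.

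Grid1 (chr14:34820003-35583387), which encodes the delta receptor GluD1, had a single peak in the whole series. Knock-in replicate 1 listed a peak of 1179 bp over the lower-coordinate end, from 0.42 kb outside to 0.76 kb inside the gene, at percentile 42.3. The other 7 libraries listed none within 5 kb. The conditional exact test of 1 library against 0 gave p = 1.0. A peak in that library and no other was found at the ends of 3.56% of all genes. No internal peak was listed for Grid1 in any library.

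No test of genotype passed its threshold at any of these genes, which does not show that the genotypes were alike. Counted as knock-in against wild type libraries with a peak, Cbln1 and Nrxn2 stood at 3 to 3, Nrxn3 at 2 to 2, Cbln3 at 2 to 3 and Grid1 at 1 to 0. The conditional exact p over the gene and its flanks was 0.301 for Cbln3 and 1.0 for the other 4, and all adjusted p-values were 1.0. Over all genes the same test made 0 calls among 12244 (0%), and 157 had p under 0.05 before adjustment. At outer ends it made 0 calls among 9826 (0%), where 90 were under 0.05 unadjusted, and for internal peaks 0 among 3996 (0%), where 20 were. The exact permutation test of covered length made 0 calls among 12329 (0%), and 2 were under 0.05 unadjusted. With 4 libraries against 4 that test cannot give a p below 0.0286, so after adjustment over this many genes its 0 calls set no limit. On simulated data the conditional test recovered all 200 changed genes for the gene with its flanks and for outer ends. It also called 2 and 1 unchanged genes there. A change meant all 4 libraries of a genotype against none. For internal peaks it recovered 0%, so a count of 0 internal calls sets no limit on such changes. The 200 genes were changed together, which makes the adjusted threshold easier to pass, and a lone changed gene was not simulated. The 0 calls for the gene with its flanks and for outer ends thus bear only on that complete pattern in many genes at once. That pattern needs a peak in replicate 4, whose lists marked 2.78% of genes for knock-in and 3.83% for wild type. Lesser changes were not simulated.

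More of all detected genes leaned to knock-in than these did. A peak was present in more knock-in than wild type libraries at 45.7% of the 12244 tested genes and in more wild type libraries at 15%, and the knock-in lists marked more genes than the wild type lists in replicates 1 to 3 and fewer in replicate 4. At outer ends these shares were 48.1% and 11.6% of 9826 genes. Of the 5 genes described here that had a peak, 1 leaned to knock-in, 1 to wild type and 3 to neither, and at outer ends the counts were 1, 2 and 2. With so few genes this gives no difference from the background. Scaled to the length each list covered in all, the mean of Cbln1 was 273.0 bp per Mb in knock-in and 555.0 in wild type (exact permutation test, p = 0.314). On this scale Cbln3 had means of 128.0 and 268.0 bp per Mb (p = 0.229, exact permutation test), Nrxn2 of 566.0 and 687.0 (p = 0.657) and Nrxn3 of 101.0 and 152.0 (p = 0.657). Grid1 had 20.3 bp per Mb in knock-in and 0 in wild type, from its 1 peak. Scaled means give great weight to a few bases in a short list. At Cbln1, wild type replicate 4 held 299 bp in a list that covered 0.285 Mb in all. At Cbln3, wild type replicate 3 held 248 bp in a list of 0.586 Mb, part of it in the flank peak over Khnyn. The lists of replicates 1 and 2 covered 9.09 to 14.5 Mb.

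Within the lists of replicates 3 and 4, these genes held 12 narrow peaks, 11 of which overlapped a broad peak of replicates 1 or 2. Over all narrow peaks 73.2% did so. The remaining 1 was a flank peak of Cbln3 in wild type replicate 3, and it lay over Khnyn. Knock-in replicate 4 had no peak at any of the 7 genes, and wild type replicate 4 only at Cbln1.

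By the score percentile of the best peak over the 8 libraries, with 0 where none was listed, the genes nearest to Cbln1 were Top1 (distance 8.2) and Sel1l3 (13.8). The nearest to Cbln3 was Khnyn, at 0, since both take the same peaks, followed by Ppp2r2c (8.49). Nrxn2 was nearest to Nrip1 (9.83) and Ankrd11 (10.3), and Nrxn3 to Jmjd6 (5.81) and Tia1 (6.41). The distance is the Euclidean distance in percentile points. The median distance of all genes with a peak in at least 2 libraries was 145.0, 111.0, 133.0 and 72.2 from Cbln1, Cbln3, Nrxn2 and Nrxn3.

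Among 44 other genes of adhesion across the synapse, such as neuroligins, latrophilins and teneurins, 38 (86.4%) had a peak in at least 1 library, against 56.3% of all protein-coding genes. Internal peaks were present at 28 of them (63.6%), against 18.4% of all genes, and gene length was not taken into account. The conditional exact test called 0 of them, 1 had an unadjusted p under 0.05, 14 leaned to knock-in and 6 to wild type, and the median difference was 0 libraries, as over all detected genes. Those found most widely were Tenm2, a teneurin, with a peak in all 8 libraries, Adgrl3, a latrophilin, in 4 knock-in and 3 wild type, and Cadm2 in 3 and 4. Next came 5 genes with a peak in 3 and 3 libraries: Adgrl1, Cadm4, Dag1, Flrt1 and Tenm1. Tenm2 held an internal peak in every library, at percentiles 34.1 to 66.2. Differences of 2 libraries occurred at 2 genes: Slitrk3 stood at 3 to 1 (conditional exact test, p = 0.152), and Lrrtm2, which encodes a postsynaptic neurexin ligand, at 0 to 2 (p = 0.0481, adjusted p = 1.0). The Lrrtm2 peaks were weak, at percentiles 1.07 and 15.6 in wild type replicates 1 and 2. That of replicate 1 lay only in a flank, and with 1 kb flanks the conditional exact test gave p = 0.267.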

How the data were processed

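H3K9ac ChIP-seq peak lists of 8 mouse cerebellar libraries were used, 4 knock-in and 4 wild type by their titles. Per the file headers, the authors' peaks came from MACS run in Galaxy, 1 list a library; the deposited value is a score per peak, and its scale is not stated. Here it only ranked the peaks of 1 list. The submitters' processing notes name Bowtie2 and mm10. Neither the settings nor any use of input DNA is stated in those sources. Gene ends came from a RefSeq table of GRCm38.p6, the assembly mm10 names, and starts, strands and sequences from RefSeq too. Starts were matched for 3 of 7 genes (5 starts); Cbln1, Cbln2, Nrxn2 and Grid1 had none. Other members of these families were not analysed here. In 15 peaks a start below 0 was set to 0.

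A peak counted with 1 bp of overlap. The conditional exact test used library odds from a Rasch fit over all genes, with Benjamini-Hochberg adjustment over genes held by 1 to 7 libraries and a threshold of 0.05. For covered length, all 70 assignments of the libraries were enumerated (exact permutation test, two-sided), with 0.0286 as the smallest possible p. Both were tested on simulated data. Same-numbered libraries of the genotypes deviated together (correlations over 12329 genes of 0.223, 0.307, 0.385 and 0.688 for replicates 1 to 4), and pairs of replicates 1 with 2 did too (0.303 and 0.282), so the numbers follow the kind of list. The genes and lists were chosen with earlier results of these data known. Named beside the 7 genes were up to 4 pathway genes with the largest difference (at least 2 libraries), up to 4 in the most libraries (those tied with the fourth are named too, added after their values were seen), the 2 nearest genes by score percentile, and neighbours sharing a peak. Python 3.11.15, NumPy 2.4.6, SciPy 1.17.1 and pandas 2.3.3 were used.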

Additional observations from a re-analysis of the deposited data

Results flagged for a closer look

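Of 18 sets of 4 libraries looked at (a gene, a genotype, and either covered length or best score percentile), 3 had a library far from the other 3. Chance flags about 1 in 20 groups of untied values, a rate that does not apply to sets with several values at 0. Grid1 in knock-in replicate 1 stood alone in both measures, with a covered length of 1.18 kb and a best peak at percentile 42.3, against 0 in the other 3 knock-in libraries; both come from its single peak. Cbln1 in knock-in replicate 4 had no peak and so a best percentile of 0, against 90.2 to 98.6 in the other 3.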

How the results depend on the processing

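The conditional exact test called 0 genes under every alternative that was run, except that at outer ends 1 gene was called without wild type replicate 2; it was none of the 7 genes. Fisher's exact test and the permutation tests of covered length also called 0, but they could hardly call any: their smallest p is 0.0286 for 4 libraries against 4, 0.125 for 4 pairs and 0.333 for 2 against 2, before adjustment. With the replicate number as a block, 0 of 8124, 6294 and 3313 tested genes were called for the gene with its flanks, outer ends and internal peaks; for covered length it called 0 of 12329, which its smallest p fixed in advance. Whether the conditional test could make a call with the block or in replicates 1 and 2 alone was not tested, and for internal peaks it made none on simulated data, so these zeros are no sign of stability. Leaving out single libraries gave 0 to 1 calls. At the genes described here no alternative gave an adjusted p below 0.945, and 18 of 255 values changed sign, all of covered length. A difference of 0 in the main run could not be counted as changing sign. For the share of libraries with a peak at Cbln1, where the main difference was 0, leaving out single libraries gave -0.25 to 0.25. As a share of the length covered by a list, the difference, knock-in minus wild type, was -282.0 bp per Mb for Cbln1 and -121.0 for Nrxn2, against 0.249 and 0.301 kb unscaled. With the stricter score threshold it was 0.154 kb for Nrxn3. Leaving out each library in turn gave -1.14 to 1.64 kb for Cbln1, -1.83 to 2.83 kb for Nrxn2, -0.781 to 0.741 kb for Cbln3 and -0.994 to 0.708 kb for Nrxn3. The direction of these small differences thus depends on single libraries. Peak lists hold no depth, and a library without a peak can be a shallow one.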
